A study of Mus musculus with 20 samples.

Results

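The dual specificity MAP kinase phosphatases Dusp1, Dusp2, Dusp4, Dusp5, Dusp6, Dusp7, Dusp8, Dusp10, Dusp14 and Dusp16 were followed by mRNA sequencing in mouse BAT (brown adipose tissue), which produces heat. The members were chosen by name, with earlier results of these data known, and all 10 were found among the 55471 gene IDs of the count tables. The tissue came from mice with an adipose specific CEBPB KO, which lack the transcription factor C/EBP beta in fat, or from wild type (WT) mice, and the mice were stressed by cold for 4 h or kept at room temperature (RT). The 4 groups, KO_cold, KO_RT, WT_cold and WT_RT, held 5 libraries each, 20 in all. The strain, age and sex of the mice, the promoter that drives the deletion and any pooling of animals are not given in the sources used here. The sources also do not say whether the libraries of a group came from separate animals, so the p-values measure the spread between these libraries, which may be technical.

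MAP kinases (ERK, JNK and p38) are switched on by phosphates on a threonine and a tyrosine of their activation loop, and the dual specificity phosphatases remove both. Many of these phosphatases are themselves transcribed when a MAP kinase is active, so that they act as feedback brakes whose mRNA level follows recent signalling. In brown fat, noradrenaline released in the cold acts through beta-adrenergic receptors, cyclic AMP and protein kinase A, and p38 is one of the kinases that carry this signal to the gene for the heat-making protein UCP1.

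The libraries held 27.07 to 55.18 M counts on genes. Levels are given as CPM, a gene's counts scaled to a common library size, and differences as log2 fold changes from edgeR's quasi-likelihood test over 15233 genes, with p-values adjusted by Benjamini-Hochberg over all of them and a threshold of 0.05. The targeted gene went with the labels: Cebpb averaged 1.92 ± 0.277 CPM in KO_cold, 0.564 ± 0.253 CPM in KO_RT, 143 ± 22.4 CPM in WT_cold and 105 ± 19.9 CPM in WT_RT (SD, n = 5 each). Summed markers of brown adipocytes lay between 24601 and 27339 CPM in KO_cold, 16079 and 19416 CPM in KO_RT, 25541 and 29889 CPM in WT_cold, and 16384 and 21698 CPM in WT_RT. Markers of skeletal muscle, a tissue next to this depot, summed to between 44.6 and 50.04 CPM in KO_cold, 84.6 and 715 CPM in KO_RT, 50.1 and 91.6 CPM in WT_cold, and 58.5 and 1609 CPM in WT_RT. In these bulk samples fewer cells of a type and less RNA per cell cannot be told apart.

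By role, the members fall into 4 sets. The inducible nuclear phosphatases are Dusp1 (ENSMUSG00000024190.7, chr17:26505590-26562128, minus strand, GRCm38), which acts on ERK, JNK and p38, Dusp2 (ENSMUSG00000027368.6, chr2:127336159-127338376, plus strand), Dusp4 (ENSMUSG00000031530.6, chr8:34807297-34819894, plus strand) and Dusp5 (ENSMUSG00000034765.6, chr19:53529109-53542431, plus strand), which acts on ERK alone. The cytoplasmic ERK phosphatases are Dusp6 (ENSMUSG00000019960.8, chr10:99263231-99267489, plus strand) and Dusp7 (ENSMUSG00000053716.9, chr9:106368632-106375724, plus strand). The phosphatases that prefer JNK and p38 are Dusp8 (ENSMUSG00000037887.11, chr7:142079490-142095843, minus strand), Dusp10 (ENSMUSG00000039384.8, chr1:184013302-184075636, plus strand) and Dusp16 (ENSMUSG00000030203.17, chr6:134715468-134792625, minus strand). Dusp14 (ENSMUSG00000018648.15, chr11:84048041-84069261, minus strand) is an atypical member that lacks the MAP kinase binding domain of the others. All 10 are protein coding genes, and their summed exons run to between 1945 and 7798 bases.

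The start regions of 9 members are held in the RefSeq promoter table of GRCm38.p6, as 250 bases before and 50 after the RefSeq start. Dusp4 has no entry. For Dusp1 and Dusp10 the RefSeq start lies well inside the gene span given above. They were searched on both strands for 5 motifs: the cAMP response element TGACGTCA, its core TGACG (which also lies within the full element), the C/EBP motif TTNNGCAA, the AP-1 motif TGANTCA and the CArG box of serum response factor. Shown here are Dusp1 and Dusp8, which hold the full cAMP response element, and Dusp5, which holds CArG boxes. Dusp7 is also shown, as the only member called for a difference between the genotypes in its change with cold. That call was lost in 15 of the 27 alternatives run. Capitals mark the matches, and each sequence is written 5′ to 3′ on the strand of the gene.
Dusp1, chr17:26508423-26508722, minus strand: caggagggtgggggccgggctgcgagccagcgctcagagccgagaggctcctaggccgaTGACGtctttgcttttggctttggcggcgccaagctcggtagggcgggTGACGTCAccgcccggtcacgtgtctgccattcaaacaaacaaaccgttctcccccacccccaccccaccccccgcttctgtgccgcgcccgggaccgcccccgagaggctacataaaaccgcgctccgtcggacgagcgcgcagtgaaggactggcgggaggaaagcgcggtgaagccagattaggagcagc
Dusp8, chr7:142095235-142095534, minus strand: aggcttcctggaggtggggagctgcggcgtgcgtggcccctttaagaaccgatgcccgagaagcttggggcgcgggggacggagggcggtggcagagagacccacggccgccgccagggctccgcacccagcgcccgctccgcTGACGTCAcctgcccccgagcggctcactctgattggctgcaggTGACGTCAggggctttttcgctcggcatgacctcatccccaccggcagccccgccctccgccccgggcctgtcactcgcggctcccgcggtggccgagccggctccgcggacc
Dusp5, chr19:53528895-53529194, plus strand: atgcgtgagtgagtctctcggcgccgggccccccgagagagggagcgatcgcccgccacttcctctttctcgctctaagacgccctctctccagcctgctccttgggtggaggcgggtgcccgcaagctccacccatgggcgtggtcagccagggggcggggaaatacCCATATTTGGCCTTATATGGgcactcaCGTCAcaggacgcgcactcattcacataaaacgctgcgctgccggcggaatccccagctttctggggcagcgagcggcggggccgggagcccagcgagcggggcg
Dusp7, chr9:106368382-106368681, plus strand: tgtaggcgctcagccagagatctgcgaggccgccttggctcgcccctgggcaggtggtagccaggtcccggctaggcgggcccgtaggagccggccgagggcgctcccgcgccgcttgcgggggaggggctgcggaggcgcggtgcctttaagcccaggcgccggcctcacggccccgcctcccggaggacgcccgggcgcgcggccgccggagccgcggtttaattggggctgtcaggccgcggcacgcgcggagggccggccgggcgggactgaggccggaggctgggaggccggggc

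Dusp1 held 1 full cAMP response element, 143 to 136 bases before the start, and Dusp8 held 2, at 107 to 100 and at 63 to 56 bases before it. The full element stood in 2 of the 9 member promoters and in 1.79% of the 32851 promoters of the table. The core stood in 5 of the 9 (Dusp1, Dusp2, Dusp5, Dusp8 and Dusp16) and in 20.8% of all promoters. Dusp5 held 2 adjoining CArG boxes, 82 to 73 and 72 to 63 bases before the start, a motif found in 1.63% of all promoters. The C/EBP motif was in 0 of the 9 windows and in 10.8% of all, and the AP-1 motif was in 0 of the 9 and in 7.81% of all. The member windows held 57.3% to 78.7% G and C bases, against a median of 52.7% over all promoters. The shares were not adjusted for this, and its part in the motif counts was not tested. A match is a description of the letters and does not show that a factor binds there.

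Across the family, 4 h of cold raised Dusp1, Dusp6, Dusp8 and Dusp16 by 3.19-fold to 4.87-fold in both genotypes and lowered Dusp4 and Dusp14. In the knockout, 7 of the 9 tested members rose and 2 fell. That is 9 of 9 called in a comparison in which 59.2% of all genes were called, 27.5% as higher and 31.7% as lower. The 9 include Dusp14, which passed the expression filter through its RT libraries, where it was higher. In the wild type, 6 of 9 rose and 3 fell, where 56.4% of all genes were called, 26.2% as higher and 30.2% as lower. The size of the changes was less common than the calls: 5 members were called at least 2-fold higher in the cold in KO and 4 in WT, against 4.98% and 4.21% of all genes. The median absolute change of the members was 1.72 on the log2 scale in KO, against 0.40 over all genes, and 1.78 in WT, against 0.37 over all genes. Because the members were chosen with earlier results of these data known, these values describe them. They do not test whether the family responds more than other genes.

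**Figure D1:**
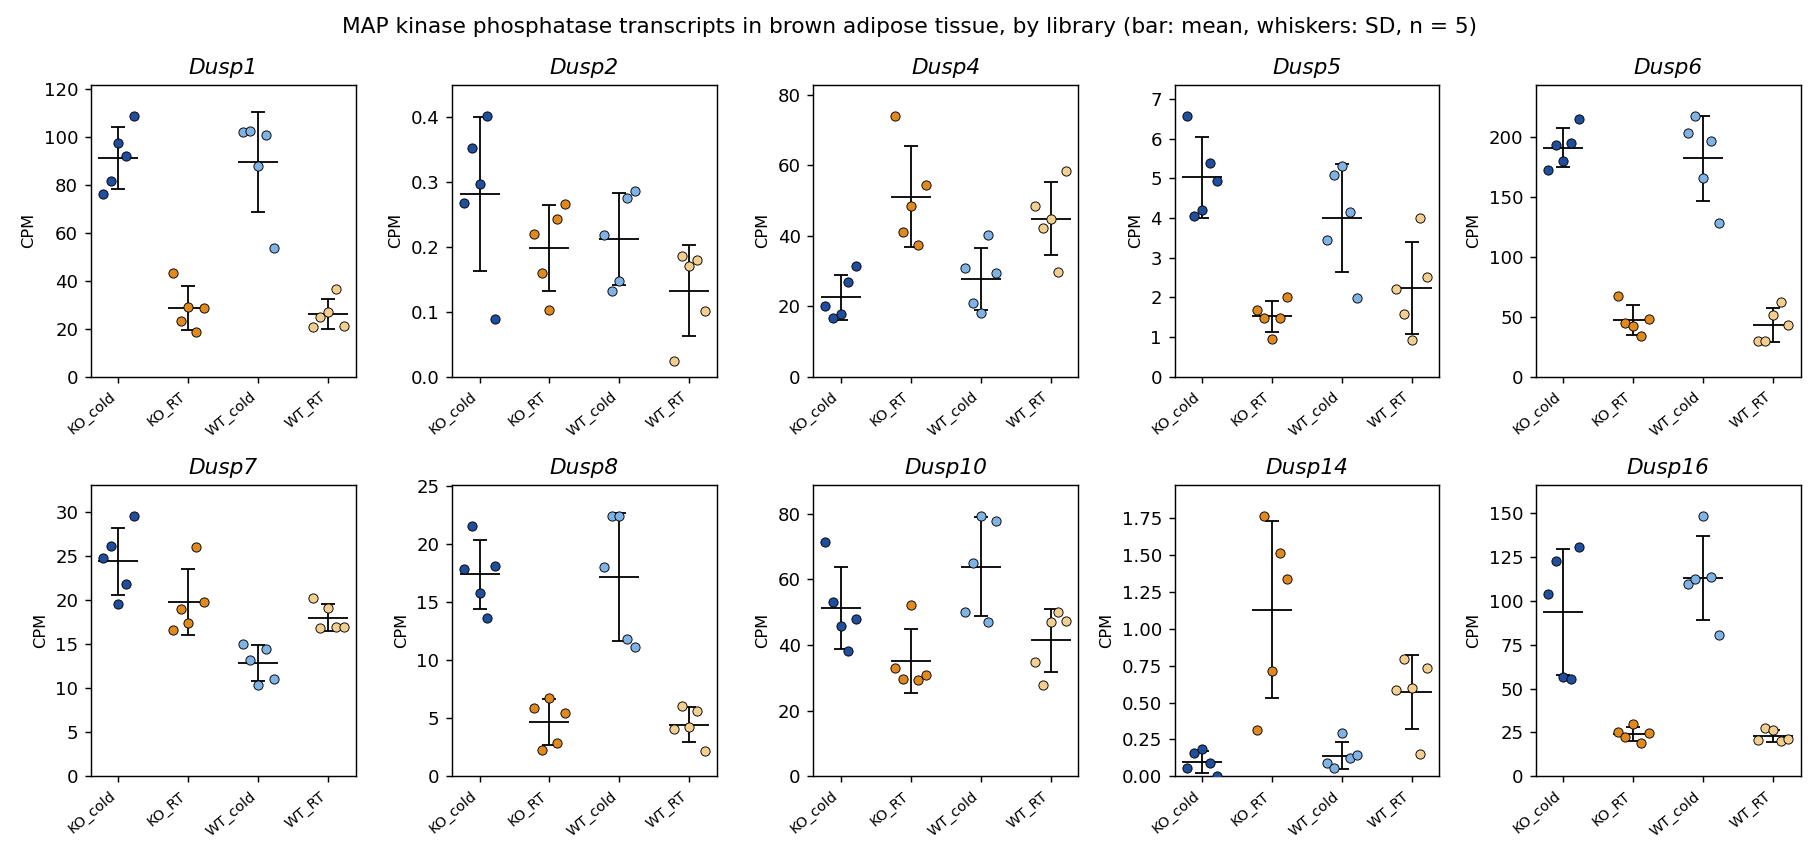
CPM of each of the 10 phosphatases in every library of KO_cold, KO_RT, WT_cold and WT_RT, 1 panel per gene with its own linear axis. Points are libraries, the long bar is the group mean and the whiskers are the SD (n = 5); Dusp1, Dusp6, Dusp8 and Dusp16 show both cold groups above both RT groups.

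Among the nuclear phosphatases, Dusp1 rose in both genotypes. It stood at 76.1, 81.8, 97.5, 92.3 and 109 CPM in the KO_cold libraries, against 43.2, 23.2, 29.2, 18.8 and 28.6 CPM in the KO_RT libraries. It stood at 102, 102, 88.1, 101 and 53.6 CPM in WT_cold, against 20.8, 24.8, 27.0, 36.6 and 21.2 CPM in WT_RT. In each genotype all 5 cold libraries lay above all 5 RT libraries, and the WT_cold library at 53.6 CPM was the nearest to the other temperature. The rise was 3.19-fold in KO (log2 fold change 1.67 ± 0.22 SE, adjusted p = 3.75e-06) and 3.43-fold in WT (1.78 ± 0.22, adjusted p = 2.12e-06). The change in KO minus that in WT was -0.11, with a 95% confidence interval of -0.75 to 0.53.

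Dusp5 was low at both temperatures. Its libraries held 6.57, 4.04, 4.20, 5.38 and 4.92 CPM in KO_cold, against 1.69, 1.47, 0.956, 1.49 and 2.02 CPM in KO_RT. They held 3.44, 5.08, 5.32, 4.16 and 1.98 CPM in WT_cold, against 2.20, 1.59, 0.914, 4.00 and 2.50 CPM in WT_RT. The KO groups did not overlap, while the WT groups did, through the lowest WT_cold library (replicate 5) and the highest WT_RT library (replicate 4). Dusp5 rose 3.28-fold in KO (1.72 ± 0.31, adjusted p = 0.000102) and 1.78-fold in WT (0.83 ± 0.30, adjusted p = 0.0245). The difference between the genotypes was 0.88 on the log2 scale (95% confidence interval -0.02 to 1.79, adjusted p = 0.508) and was not called.
The WT call was not stable. With WT_RT replicate 4 and WT_cold replicate 5 both left out it was 1.34 (adjusted p = 0.000117). These are the libraries that made the WT groups overlap, so leaving them out had to widen the gap. That fit is no support for the call. The call was lost without WT_RT replicate 2 (0.73, adjusted p = 0.0647), WT_cold replicate 2 (0.75, adjusted p = 0.0572) or WT_cold replicate 3 (0.73, adjusted p = 0.0591), and also with no expression filter (0.86, adjusted p = 0.0617) and with only the groups compared in the fit (0.85, adjusted p = 0.0742).

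Dusp4, an inducible nuclear phosphatase that acts on ERK, JNK and p38, moved against Dusp1 and Dusp5. Dusp4 stood at 20.1, 16.6, 17.8, 26.8 and 31.5 CPM in KO_cold, against 74.0, 41.1, 48.5, 37.4 and 54.3 CPM in KO_RT. In the wild type it stood at 30.8, 20.8, 18.0, 40.1 and 29.3 CPM in WT_cold, against 48.6, 42.3, 44.9, 29.8 and 58.4 CPM in WT_RT. All KO_cold libraries were below all KO_RT libraries, and the WT groups overlapped through WT_cold replicate 4 and WT_RT replicate 4. Dusp4 fell 2.26-fold in KO (-1.18 ± 0.25, adjusted p = 0.000556) and 1.61-fold in WT (-0.69 ± 0.24, adjusted p = 0.0230). The WT call was lost without WT_RT replicate 5 (-0.55, adjusted p = 0.0800), WT_cold replicate 2 (-0.57, adjusted p = 0.0748) or WT_cold replicate 3 (-0.54, adjusted p = 0.0753), and also with no expression filter (-0.67, adjusted p = 0.0596). Dusp2, a nuclear phosphatase best known from immune cells, was near the limit of detection and did not pass the expression filter. It had 3 to 13 counts per library in KO_cold, 3 to 9 in KO_RT, 5 to 12 in WT_cold and 1 to 8 in WT_RT, and was not tested.

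Dusp6 and Dusp7 are close relatives that hold ERK inactive in the cytoplasm. Dusp6 rose strongly in both genotypes. Dusp6 stood at 172, 193, 179.9, 195 and 215 CPM in KO_cold, against 67.3, 44.5, 42.5, 34.0 and 48.2 CPM in KO_RT. In the wild type it stood at 203, 217, 166, 196 and 128 CPM in WT_cold, against 30.04, 29.4, 51.4, 62.0 and 43.3 CPM in WT_RT. The lowest cold library of either genotype had 128 CPM and the highest RT library 67.3 CPM, so that the temperatures were separate in both. Dusp6 rose 4.04-fold in KO (2.01 ± 0.21, adjusted p = 2.49e-07) and 4.22-fold in WT (2.08 ± 0.21, adjusted p = 2.06e-07). The changes in the 2 genotypes differed by -0.06 (95% confidence interval -0.67 to 0.55).

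Dusp7 was the only member called for a difference between the genotypes in its response to cold, and that call was not stable. It stood at 24.8, 26.1, 19.6, 21.9 and 29.6 CPM in KO_cold, against 16.6, 19.0, 17.4, 26.1 and 19.8 CPM in KO_RT. In the wild type it stood at 14.98, 13.3, 10.4, 14.5 and 11.02 CPM in WT_cold, against 20.2, 16.9, 19.1, 16.9 and 16.9 CPM in WT_RT. The WT_cold libraries were all below the WT_RT libraries, while the KO_cold libraries overlapped those of KO_RT through KO_RT replicates 4 and 5, which lay above the lowest KO_cold library. Dusp7 rose 1.23-fold in KO (0.30 ± 0.13, adjusted p = 0.0440) and fell 1.40-fold in WT (-0.49 ± 0.13, adjusted p = 0.00246). The rise in KO lost its call in 5 of the 10: without KO_RT replicate 1 (0.27, adjusted p = 0.0787), replicate 2 (0.32, adjusted p = 0.0535) or replicate 3 (0.29, adjusted p = 0.0713), and without KO_cold replicate 2 (0.30, adjusted p = 0.0597) or replicate 5 (0.25, adjusted p = 0.0938). It was also lost with no expression filter (0.30, adjusted p = 0.0776) and with only the groups compared in the fit (0.32, adjusted p = 0.0510). The fall in WT kept its call with each of the 10 WT libraries left out, with adjusted p-values up to 0.0136.

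The difference between these changes was 0.79 ± 0.18 on the log2 scale (95% confidence interval 0.42 to 1.16, adjusted p = 0.0363, edgeR quasi-likelihood test). Dusp7 was the 1 member called of 9 in this comparison, in which 0.742% of all genes were called, 0.427% in its direction. Its value kept its sign and lay between 0.71 and 0.91 under every alternative run, with adjusted p-values of 0.00333 to 0.0922. The call was lost in 12 of the 20 fits that each left out 1 library: without WT_RT replicate 1, 3 or 4 (0.74, 0.77 and 0.81), WT_cold replicate 3 or 5 (0.73 and 0.74), KO_RT replicate 1, 2, 3 or 5 (0.73, 0.78, 0.75 and 0.79) or KO_cold replicate 1, 2 or 5 (0.79, 0.77 and 0.71). In those 12 fits it lay between 0.0550 and 0.0754.

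**Figure D2:**
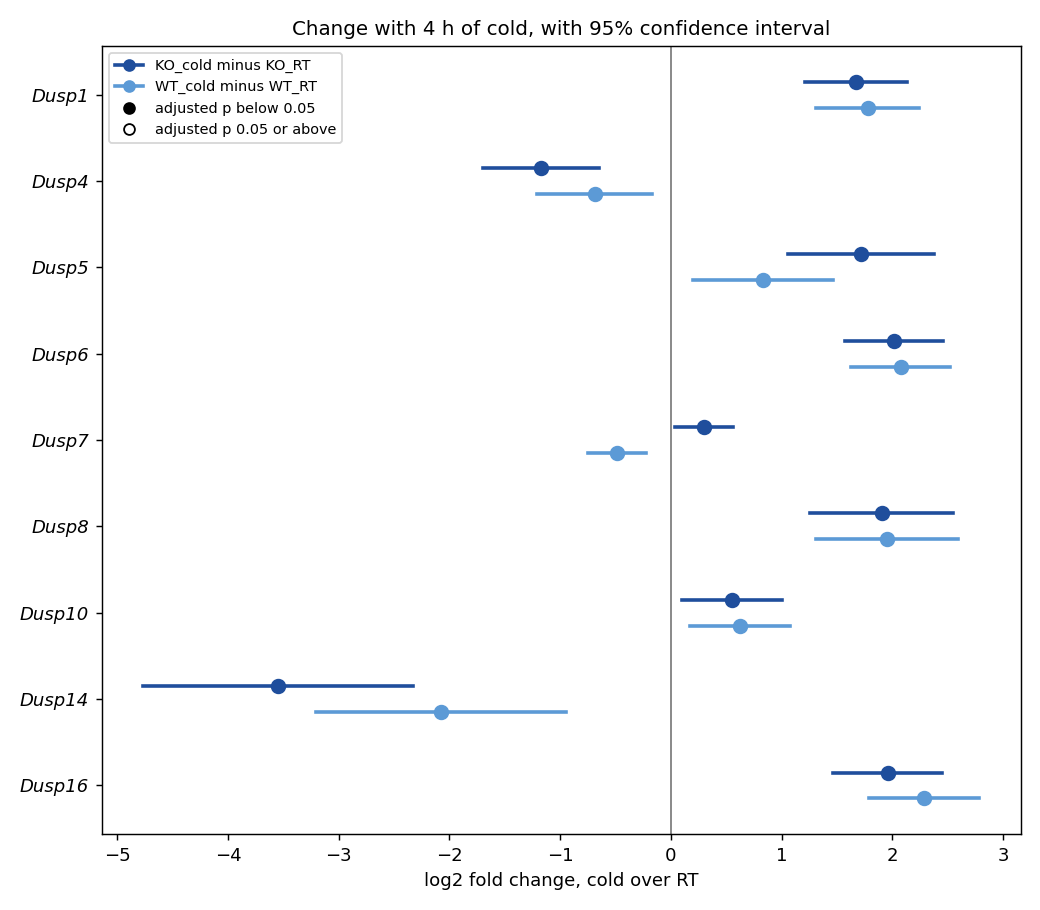
Log2 fold change of the 9 tested members with cold over RT in KO (dark) and WT (light), with 95% confidence intervals; filled points passed the adjusted p threshold of 0.05. Dusp1, Dusp6, Dusp8 and Dusp16 lie between 1.67 and 2.28 in both genotypes, and Dusp7 is the member whose points lie on opposite sides of 0.

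The JNK and p38 phosphatases Dusp8, Dusp10 and Dusp16 all rose, by different amounts. Dusp16 stood at 104, 123, 56.5, 55.3 and 130.4 CPM in KO_cold, against 25.0, 22.6, 29.8, 18.9 and 24.4 CPM in KO_RT. In the wild type it stood at 109.6, 112, 148, 114 and 80.6 CPM in WT_cold, against 20.6, 27.3, 26.5, 20.1 and 21.5 CPM in WT_RT. The groups did not overlap, although the KO_cold libraries split into 2 at 55.3 and 56.5 CPM and 3 at 104 CPM or more. Dusp16 rose 3.88-fold in KO (1.96 ± 0.23, adjusted p = 1.28e-06) and 4.87-fold in WT (2.28 ± 0.24, adjusted p = 2.59e-07), and the difference of -0.33 had a confidence interval of -1.002 to 0.35.

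Dusp8 started from a low level. It stood at 17.9, 21.6, 15.8, 13.6 and 18.1 CPM in KO_cold, against 5.91, 2.27, 6.76, 2.88 and 5.46 CPM in KO_RT. It stood at 18.0, 22.4, 22.4, 11.9 and 11.1 CPM in WT_cold, against 4.08, 6.10, 4.23, 5.60 and 2.22 CPM in WT_RT. All cold libraries were above all RT libraries in both genotypes, with a rise of 3.74-fold in KO (1.90 ± 0.31, adjusted p = 3.58e-05) and 3.86-fold in WT (1.95 ± 0.30, adjusted p = 2.80e-05).

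Dusp10 had a smaller rise and the groups overlapped. It stood at 71.3, 53.1, 45.9, 38.3 and 47.9 CPM in KO_cold, against 33.1, 29.8, 52.3, 29.5 and 30.8 CPM in KO_RT. It stood at 50.2, 65.1, 79.4, 47.1 and 77.8 CPM in WT_cold, against 34.8, 27.8, 47.1, 50.2 and 47.4 CPM in WT_RT. The overlap in KO came from 1 high KO_RT library (replicate 3), and in WT the WT_cold replicates 1 and 4 lay within the range of WT_RT. Dusp10 averaged 51.3 ± 12.4 CPM in KO_cold and 35.1 ± 9.72 CPM in KO_RT, and 63.9 ± 15.1 CPM in WT_cold and 41.5 ± 9.67 CPM in WT_RT (SD, n = 5 each). The rise was 1.46-fold in KO (0.55 ± 0.21, adjusted p = 0.0353) and 1.54-fold in WT (0.62 ± 0.21, adjusted p = 0.0185). In KO the call was lost without KO_RT replicate 1 (0.56, adjusted p = 0.0529), replicate 2 (0.53, adjusted p = 0.0657), replicate 4 (0.52, adjusted p = 0.0658) or replicate 5 (0.54, adjusted p = 0.0604), or without KO_cold replicate 1 (0.43, adjusted p = 0.0930), and also with no expression filter (0.55, adjusted p = 0.0813). In WT it was lost without WT_RT replicate 2 (0.51, adjusted p = 0.0518).

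Dusp14 was down to a few reads per library in the cold. Its libraries held 2, 4, 5, 3 and 0 counts in KO_cold, against 13, 66, 21, 50 and 45 counts in KO_RT. They held 4, 3, 10, 4 and 6 counts in WT_cold, against 24, 34, 21, 6 and 29 counts in WT_RT. The KO groups were separate, and the WT groups overlapped at WT_RT replicate 4, whose 6 counts were the lowest of its group. The fall was 11.7-fold in KO (-3.55 ± 0.59, adjusted p = 2.34e-05) and 4.21-fold in WT (-2.07 ± 0.54, adjusted p = 0.00263), and the difference of -1.47 had a confidence interval of -3.25 to 0.30. With so few reads the size of the fold is loosely set. Dusp14 passed the expression filter through its RT libraries, where it was higher. The filter thus favoured finding a fall, and these calls are weak support.

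Read by overlap alone, 5 members had all KO_cold libraries above all KO_RT libraries, and 2 (Dusp4 and Dusp14) had them all below. Over all genes, 21.6% were separate upwards and 23.2% downwards. In WT, 4 were above and 1 below, where the shares over all genes were 18.9% and 19.3%. Calls for Dusp1, Dusp6, Dusp8 and Dusp16 were kept in both genotypes under every alternative run. So were those of Dusp14, which passed the expression filter through its RT libraries.

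Skeletal muscle markers fell with cold together with these changes: 17 of 18 were called lower in each genotype, and 3 of the 18 had 0 counts in all KO_cold libraries. Within groups, the deviations of Dusp6 ran against those of the muscle marker mean (Pearson r = -0.60 over 20 libraries, as a description). When the muscle marker mean entered the fit, the rise of Dusp6 was 1.48 in KO and 1.79 in WT, and that of Dusp1 was 1.40 in KO and 1.63 in WT. Dusp8 (2.04 in KO and 2.03 in WT) and Dusp16 (2.12 in KO and 2.39 in WT) were not smaller with this term, and all of these kept their calls. The term ended the calls of Dusp7 (0.40, adjusted p = 0.0856) and Dusp10 (0.37, adjusted p = 0.387) in KO, and of Dusp4 (-0.60, adjusted p = 0.126), Dusp5 (0.57, adjusted p = 0.176) and Dusp10 (0.53, adjusted p = 0.1003) in WT. In KO the muscle marker mean went with temperature, at -2.46 to -2.24 log2 CPM in KO_cold and 0.556 to 4.57 in KO_RT. This fit therefore separates muscle from cold poorly, and a call kept or lost with the term does not settle the part of muscle.
Over all genes, 27.5% rose and 31.7% fell with cold in KO, and 26.2% rose and 30.2% fell in WT. Among the other marker lists, 5 of 11 tested lymphocyte genes fell in each genotype. Endothelial genes moved both ways (7 higher and 4 lower of 14 in KO, 5 higher and 4 lower in WT), as did those of smooth muscle and pericytes (3 higher and 2 lower of 9 in KO, 1 higher and 4 lower in WT). Of 13 macrophage genes, 4 rose in KO and none fell; 3 rose and 1 fell in WT. Of 11 fibroblast and progenitor genes, 3 rose in KO and 2 in WT, and of 4 tested neutrophil genes 1 fell in KO, with 0 called by edgeR and 0 at an unadjusted p under 0.05 in WT. Of 12 brown adipocyte genes, 4 rose and 6 fell in KO, and 4 rose and 5 fell in WT. The part of these cell types in the results was not tested.

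To compare the members with each other, CPM was divided by the length of the summed exons. At RT the order was led by Dusp4, with 18.6 ± 5.25 CPM per kb in KO_RT and 16.3 ± 3.79 in WT_RT. Dusp6 (15.1 ± 3.94 in KO_RT and 13.8 ± 4.46 in WT_RT) and Dusp10 (11.5 ± 3.19 and 13.6 ± 3.18) came next, and the ranges of these 3 overlapped. Dusp1 (8.64 in KO_RT and 7.88 in WT_RT), Dusp7 (5.90 and 5.36) and Dusp16 (3.10 and 2.97) followed, and Dusp8, Dusp5, Dusp14 and Dusp2 were each below 1 CPM per kb.

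In the cold Dusp6 led, with 61.0 ± 5.21 CPM per kb in KO_cold and 58.1 ± 11.4 in WT_cold, and its range was apart from that of Dusp1 (27.6 ± 3.89 and 27.0 ± 6.32), which came next. Dusp10 (16.9 and 21.01), Dusp16 (12.03 and 14.5) and Dusp4 (8.24 and 10.1) followed, each overlapping its neighbour. Dusp7 was above Dusp8 without overlap in KO_cold (7.27 against 3.57), while their ranges overlapped in WT_cold (3.82 against 3.53).

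**Figure D3:**
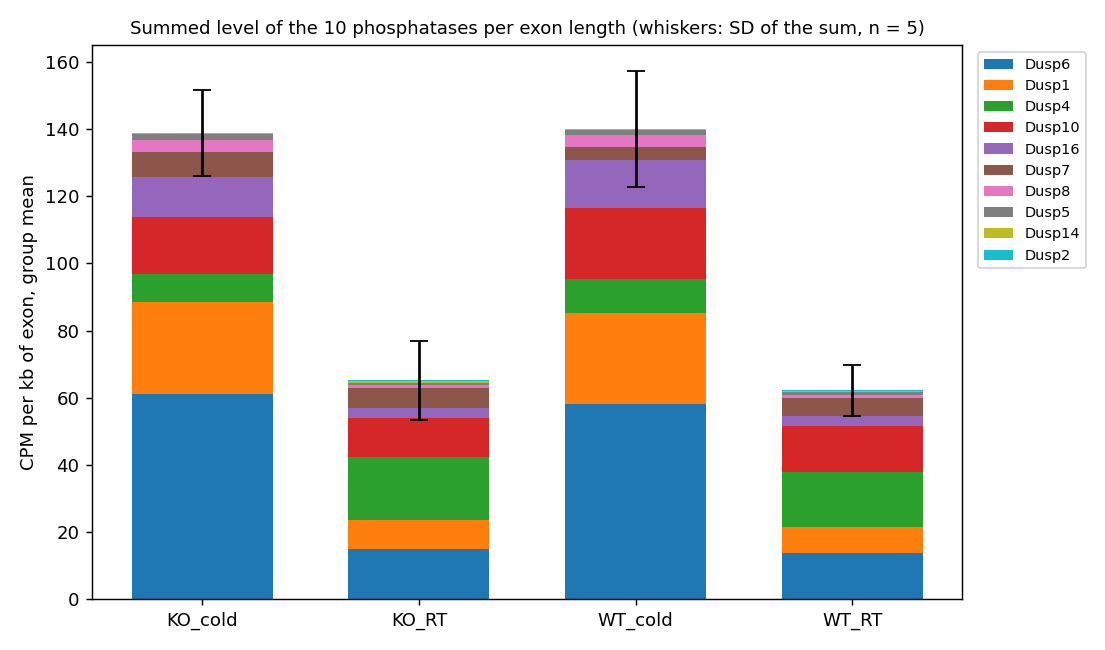
Group mean CPM per kb of exon for the 10 phosphatases, stacked, in KO_cold, KO_RT, WT_cold and WT_RT; whiskers are the SD of the sum over 5 libraries. The stacks reach 138.8 and 139.9 in the cold groups, against 65.2 and 62.2 at RT, and Dusp6 fills the largest segment in both cold groups.

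Summed over the 10 members, the level was 138.8 ± 12.8 CPM per kb in KO_cold and 65.2 ± 11.9 in KO_RT, and 139.9 ± 17.3 in WT_cold and 62.2 ± 7.53 in WT_RT (SD, n = 5 each). Dusp6 made up 44.1% of the sum in KO_cold and 23.0% in KO_RT, and 41.3% in WT_cold and 21.8% in WT_RT. Dusp4 made up 5.90% in KO_cold and 28.3% in KO_RT, and 7.38% in WT_cold and 26.7% in WT_RT. The summed level was higher in every cold library than in every RT library of the same genotype.

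The comparison of KO with WT asks whether the levels depend on C/EBP beta. At RT, 0 of the 9 tested members were called by edgeR and 0 by DESeq2, 1 had an unadjusted p under 0.05, and 2.7% of all genes were called. The largest difference was that of Dusp14, which averaged 1.13 ± 0.597 CPM in KO_RT and 0.573 ± 0.250 CPM in WT_RT (log2 fold change 0.97, 95% confidence interval 0.05 to 1.89, adjusted p = 0.327). Dusp5 averaged 1.52 ± 0.387 CPM in KO_RT and 2.24 ± 1.16 CPM in WT_RT (-0.55, confidence interval -1.21 to 0.11). For the 7 others the log2 fold change was between -0.24 and 0.19.

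In the cold, 1 of the 9 was called, where 7.7% of all genes were called and 3.51% as higher. Dusp7 averaged 24.4 ± 3.85 CPM in KO_cold and 12.8 ± 2.04 CPM in WT_cold (SD, n = 5 each), a 1.90-fold higher level (0.93 ± 0.13, 95% confidence interval 0.66 to 1.19, adjusted p = 5.27e-05). Its lowest KO_cold library, at 19.6 CPM, was above its highest WT_cold library, at 14.98 CPM, a separation upwards found for 3.26% of all genes. The value lay between 0.85 and 0.99 under all 18 alternatives and was called in each. For Dusp1, Dusp6, Dusp8 and Dusp16, which cold raised in both genotypes, KO over WT in the cold was not called. The confidence interval ran from -0.42 to 0.48 for Dusp1, from -0.36 to 0.50 for Dusp6, from -0.59 to 0.62 for Dusp8 and from -0.74 to 0.20 for Dusp16. Differences within these intervals remain compatible with the values of these libraries.

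**Figure D4:**
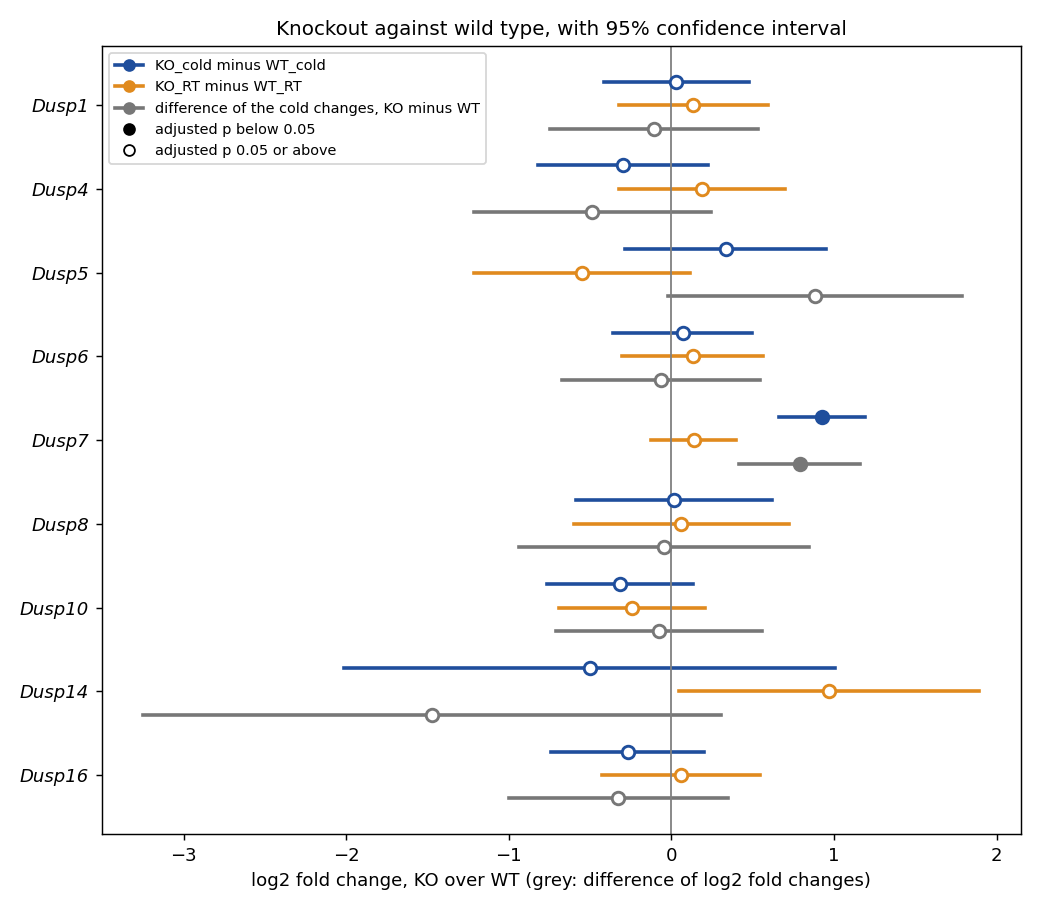
Log2 fold change of KO over WT in the cold (blue) and at RT (orange) for the 9 tested members, and the change with cold in KO minus that in WT (grey), with 95% confidence intervals; filled points passed the adjusted p threshold of 0.05. The filled points are both of Dusp7, at 0.93 in the cold and 0.79 for the difference of the changes.

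Members were also compared library by library, as deviations from the group means on the log2 scale. Dusp1 and Dusp6 moved together (Pearson r = 0.83 over 20 libraries), as did Dusp1 and Dusp8 (0.58) and Dusp8 and Dusp16 (0.51). Dusp14 ran against Dusp1 (-0.65) and Dusp6 (-0.63). Over all 36 pairs the median was -0.01, and Dusp7 had no pair beyond 0.33 in size with another member. The values of a library share its dissection, depth and scaling, and these correlations are descriptions.
WT_RT replicate 4 was the highest of its group for Dusp1 (36.6 CPM), Dusp5 (4.00 CPM), Dusp6 (62.0 CPM) and Dusp10 (50.2 CPM) and the lowest for Dusp4, Dusp14 and Dusp16. WT_cold replicate 5 was the lowest of its group for Dusp1 (53.6 CPM), Dusp5 (1.98 CPM), Dusp6 (128 CPM), Dusp8 (11.1 CPM) and Dusp16 (80.6 CPM). With both left out, the cold change in WT was 2.10 for Dusp1, 2.37 for Dusp6, 2.20 for Dusp8 and 2.36 for Dusp16. WT_cold replicate 5 was the lowest of its group for each of these, so the choice of libraries favoured a larger change.

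**Figure D5:**
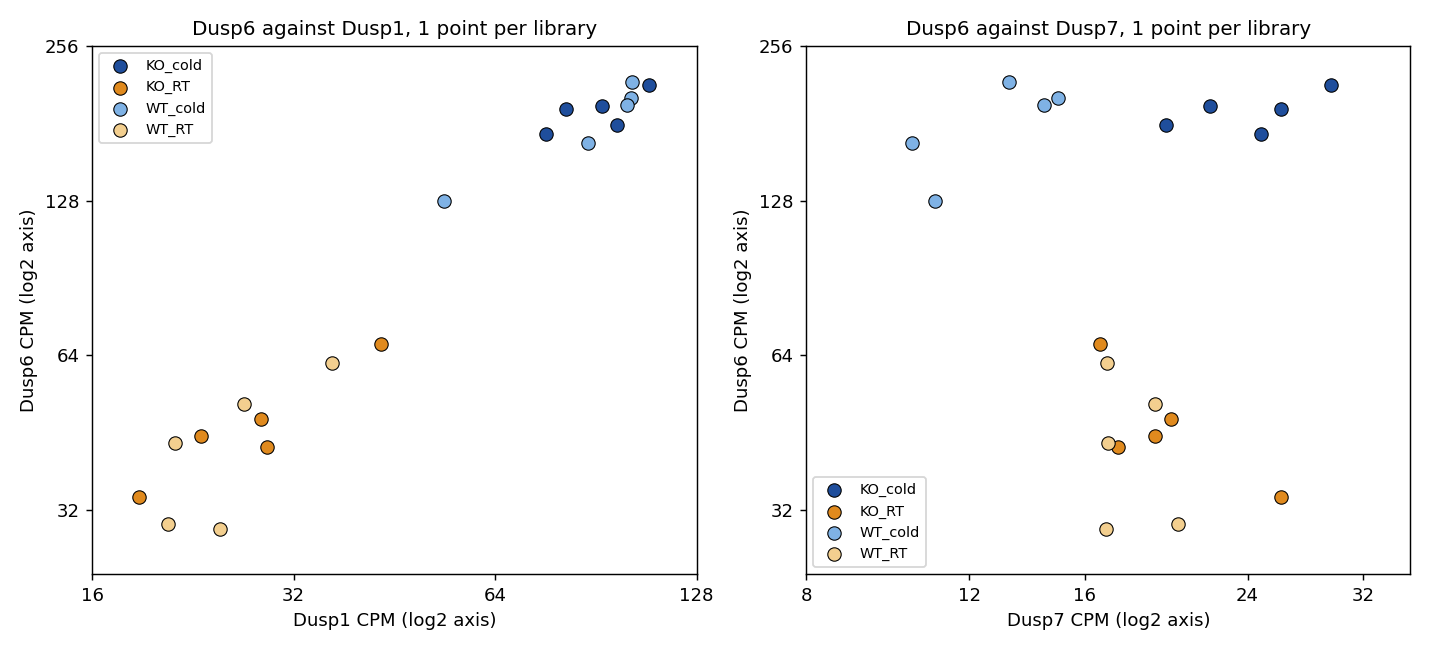
CPM of Dusp6 against that of Dusp1 (left) and Dusp7 (right) on log2 axes, 1 point per library, coloured by group. Dusp6 and Dusp1 lie along 1 rising band with the cold libraries at its upper end, while Dusp7 separates KO_cold (19.6 to 29.6 CPM) from WT_cold (10.4 to 14.98 CPM) at like levels of Dusp6.

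The other genes of the MAP kinase cascades were read from 9 lists. Over all genes, 27.5% rose and 31.7% fell with cold in KO, and 26.2% rose and 30.2% fell in WT. Among other feedback inhibitors of ERK (Sprouty and Spred proteins, Errfi1 and Il17rd), 6 of 8 tested genes rose in KO and none fell, and 6 rose and 1 fell in WT. The count of 1 that fell in WT was 0 in 14 of 18 alternatives. Spry4, which blocks signalling from receptor tyrosine kinases, averaged 86.9 ± 10.6 CPM in KO_cold and 21.5 ± 7.39 CPM in KO_RT (log2 fold change 2.02), and 109 ± 26.4 CPM in WT_cold and 19.4 ± 2.87 CPM in WT_RT (2.49). Errfi1, an inhibitor of the EGF receptor, averaged 41.2 ± 5.41 CPM in KO_cold and 17.0 ± 5.73 CPM in KO_RT (1.28), and 33.5 ± 2.73 CPM in WT_cold and 13.7 ± 2.77 CPM in WT_RT (1.29).

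Of 13 tested genes that respond to ERK, 7 rose and 1 fell in KO, and 6 rose and none fell in WT. Those that rose include Fosl1 (0.0404 CPM in KO_RT and 0.0566 CPM in WT_RT) and Fosb (0.232 and 0.143 CPM). Both passed the expression filter through their cold libraries, where they were higher. For them the filter thus favoured finding a rise, and their calls are weak support. The AP-1 subunit Junb averaged 16.7 ± 4.35 CPM in KO_cold and 4.39 ± 1.23 CPM in KO_RT (1.92), and 8.53 ± 1.10 CPM in WT_cold and 5.01 ± 0.361 CPM in WT_RT. Fos averaged 2.45 ± 0.681 CPM in KO_cold and 0.546 ± 0.207 CPM in KO_RT (2.14), and 1.77 ± 0.605 CPM in WT_cold and 0.565 ± 0.228 CPM in WT_RT (1.64).

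The kinases themselves were mixed. Of 9 MAP kinases, 3 rose and 3 fell in each genotype: Mapk14, which encodes p38 alpha, fell (-1.004 in KO and -0.75 in WT). Of 7 MAP kinase kinases, 4 rose and 2 fell in KO, and 3 rose and 1 fell in WT. Map2k3, an activator of p38, averaged 82.5 ± 9.86 CPM in KO_cold and 31.7 ± 4.06 CPM in KO_RT (1.38), and 56.1 ± 8.98 CPM in WT_cold and 29.5 ± 3.76 CPM in WT_RT (0.93). Of 19 MAP3 kinases and RAF kinases, 7 rose and 7 fell in KO, and 6 rose and 6 fell in WT.
Of 10 kinases activated by MAP kinases, 1 rose and 6 fell in each genotype. The 1 that rose was Mapkapk2, a substrate of p38, with 827 ± 39.7 CPM in KO_cold and 244 ± 45.1 CPM in KO_RT (1.76), and 737 ± 119 CPM in WT_cold and 241 ± 11.5 CPM in WT_RT (1.61). Rps6ka5, which encodes the nuclear kinase MSK1, fell (-1.49 in KO and -1.93 in WT).

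Of 13 tested dual specificity phosphatases outside the 10 members, 2 rose and 6 fell in KO, and 1 rose and 7 fell in WT. The 7 include Dusp15, which was near the limit of detection and met the expression filter in WT_RT, where it was highest. Dusp22 averaged 13.5 ± 0.787 CPM in KO_cold and 27.7 ± 3.48 CPM in KO_RT (-1.04), and 16.4 ± 2.17 CPM in WT_cold and 27.7 ± 3.05 CPM in WT_RT (-0.76). Dusp23 (-0.82 in KO and -0.81 in WT) and Dusp19 (-1.10 in KO and -0.83 in WT) fell as well. Of the 5 tested tyrosine and PP2C phosphatases that act on MAP kinases, 1 fell in KO (Ppm1a, -0.25) and 0 were called in WT by edgeR or DESeq2, with 1 at an unadjusted p under 0.05. Of 7 scaffold genes, 3 rose and 4 fell in KO, and 3 rose and 3 fell in WT.

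The genes of these lists were also compared between genotypes. Of all genes, 2.7% were called at RT, 7.7% in the cold and 0.742% for the difference of the cold changes. At RT, Dusp15 (-2.26), Map3k5 (-0.60), Rps6ka5 (-0.67) and Mapk8ip3 (-0.22) were lower in KO and Mapk8ip1 (0.98) was higher. Over 18 alternatives, the count of other dual specificity phosphatases lower in KO at RT was 0 or 2 in place of 1 in 13, that of scaffolds lower was 0 in 11, and that of scaffolds higher was 0 in 2. In the cold, Dusp18 (0.59), Map2k3 (0.56), Il17rd (0.63) and Junb (0.96) were higher in KO, and Map3k5 (-0.68) was lower. The count of other dual specificity phosphatases higher in KO in the cold was 0 in 10 of 18 alternatives. The change with cold was higher in KO than in WT for Dusp18 (1.23, adjusted p = 0.0207), Il17rd (0.74, adjusted p = 0.0272) and Junb (1.15, adjusted p = 0.0296), besides Dusp7. Over 27 alternatives, the count called for this difference was 0 in 16 for the ERK-responsive genes, the list of Junb, in 9 for the feedback inhibitors, the list of Il17rd, and in 1 for the other dual specificity phosphatases, the list of Dusp18. Il17rd, which holds back ERK signalling, averaged 7.48 ± 0.997 CPM in KO_cold and 5.46 ± 0.577 CPM in KO_RT, and 4.82 ± 0.648 CPM in WT_cold and 5.87 ± 0.629 CPM in WT_RT.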

How the data were processed

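Stranded mRNA libraries of brown adipose tissue were made with a KAPA kit, per the labels' protocols. The submitters' processing notes name Trim Galore 0.6.0, STAR 2.7.8a and GRCm38.p6; the annotation release is not given in the sources used here. The authors deposited 1 table of raw counts by gene for each library. The reverse strand column, with 94.5% to 95.7% of the stranded counts, was used; 4 entries per table name no gene and were left out (unmapped 3.86% to 5.66%, several places 18.3% to 21.4%, no gene 3.14% to 4.55%, more than 1 gene 1.02% to 1.16%). IDs were matched to symbols and GENCODE M21 without their version, for 55144 and 55230 of 55471 IDs. Exons of Dusp1, Dusp5 and Dusp8 overlap those of a gene on the other strand, which the strand column keeps apart.

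With edgeR 4.0.16 in R 4.3.3, filterByExpr (count minimum 10, total minimum 15) left 15233 genes. After TMM scaling, 1 robust quasi-likelihood model (4 groups, 16 residual degrees of freedom) was used for 5 comparisons, with p-values adjusted by Benjamini-Hochberg over all genes. The fit was tested on simulated data. The alternatives tried were the DESeq2 1.42.0 Wald test, scaling by relative log expression, testing without the filter, fitting only the groups compared, the replicate block, both strands together, leaving out each library, adding the muscle marker mean, and WT_RT replicate 4 with WT_cold replicate 5 left out. The members, lists and tests were chosen with earlier results of these data known. Of each pathway list, named genes were among the 4 of largest called change per comparison with a mean of at least 1 CPM. Level comparisons between genes used CPM per kb of summed exons. Promoter sequences are those of RefSeq. Some genes of the pathway lists are counted but not reported by name here.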

Additional observations from a re-analysis of the deposited data

Results flagged for a closer look

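Dusp10, a phosphatase of JNK and p38, had 52.3 CPM in KO_RT replicate 3, while the other 4 KO_RT libraries lay between 29.5 and 33.1 CPM. The gap to the next library was 0.84 of the range of the group, above the critical value of 0.71 for 5 libraries. This was the 1 case among 40 sets of a member and a group, and chance alone gives about 1 in 20.

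Dusp7, a cytoplasmic phosphatase of ERK, changed with cold by 0.79 more on the log2 scale in KO than in WT, and this difference between the genotypes passed the test (adjusted p = 0.0363, edgeR). The KO_cold libraries held 19.6 to 29.6 CPM and the WT_cold libraries 10.4 to 14.98 CPM. The call was lost when any 1 of 12 of the 20 libraries was left out, with 0.71 as the lowest value of the difference.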

How the results depend on the processing

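Members called numbered 7 to 9 with cold in KO and 6 to 9 with cold in WT over all alternatives, and 1 in each for the knockout in the cold. For the difference of the cold changes the count was 0 with no expression filter, 0 with the replicate block, 0 without WT_RT replicate 4 and WT_cold replicate 5 together, and 0 to 1 with each library left out. All genes called for that difference numbered 74 with those 2 libraries left out together and 269 with DESeq2, and for the knockout at RT 629 with DESeq2 and 267 to 356 with each library left out. The replicate numbers are not stated to pair libraries, and 7 of 30 same-numbered pairs correlated over 0.1 (range -0.18 to 0.27); with the replicate block Dusp7 was 0.80 for the difference (adjusted p = 0.0515), with 9 members called for cold in each genotype.
Only members with no call changed direction. For the knockout in the cold, Dusp8 was -0.013 with no expression filter, Dusp1 was -0.036 and Dusp6 -0.056 with the muscle term, and Dusp1 was -0.11, Dusp6 -0.032 and Dusp8 -0.10 without the 2 WT libraries. For the difference of the cold changes, Dusp8 was 0.0078 with the muscle term. With each library left out, the knockout at RT ranged from -0.065 to 0.29 for Dusp1, -0.031 to 0.30 for Dusp6, -0.11 to 0.24 for Dusp8 and -0.026 to 0.13 for Dusp16. The knockout in the cold ranged from -0.11 to 0.091 for Dusp1, -0.032 to 0.14 for Dusp6 and -0.10 to 0.13 for Dusp8. The difference of the cold changes ranged from -0.26 to 0.10 for Dusp1, -0.23 to 0.10 for Dusp6, -0.22 to 0.13 for Dusp8 and -0.22 to 0.11 for Dusp10. The causes were not tested. Depth limits Dusp2 and Dusp14, with at most 13 and 66 counts in a library.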

Other observations

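Genes whose level followed each member most closely within groups were named by the Pearson correlation of deviations from group means over 20 libraries. They were sought among 8943 genes of at least 5 CPM, from which the MAP kinase lists were not left out. For Dusp6 they were Rbm15 (0.89), an RNA-binding protein of the mRNA methylation machinery, Bdp1 (0.86), a subunit of the RNA polymerase III initiation factor, and Kat6a (0.86), a histone acetyltransferase. For Dusp1 they were Tmod3 (0.87), Ccdc9 (0.85) and Cdc42bpb (0.85). For Dusp7 they were Pink1 (0.75), a kinase of mitochondrial quality control, Dnajb1 (0.73), a heat shock co-chaperone, and Naprt (0.73), an enzyme of NAD synthesis. The closest gene was Txndc12 for Dusp4 (0.87), Cebpz for Dusp5 (0.86), Zfp948 for Dusp8 (0.87), Pkp4 for Dusp10 (0.78), Tgfbr3 for Dusp14 (0.75) and Fam117a for Dusp16 (0.87). These are the highest of many correlations over libraries that share dissection and depth, and are descriptions with no test.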
